A study of Mus musculus with 10 samples.

Results

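The 8 genes described here encode the paired isoforms of 4 subunits of cytochrome c oxidase, and they were taken by symbol from a heart count table of 24537 genes. Cox4i2 and Cox4i1 encode COX4, Cox6a2 and Cox6a1 encode COX6A, Cox7a1 and Cox7a2 encode COX7A, and Cox8b and Cox8a encode COX8. All 8 were found, and all 8 passed the filter of at least 10 counts summed over the libraries. RNA from the hearts of 10 mice aged 6 weeks had been sequenced, 1 library per mouse, to ask which transcriptional changes persist after a transient loss of SOD2 before birth. The 5 control mice were Rosa26-rtTA2+/-;TRE-SOD2-shRNA-/- (3 males and 2 females) and the 5 iSOD2 mice were Rosa26-rtTA2+/-;TRE-SOD2-shRNA+/- (2 males and 3 females). Every mouse thus carried the rtTA2 transactivator, driven from the Rosa26 locus in all tissues, and only iSOD2 mice carried the hairpin against Sod2, which sits at the Col1a1 locus under a doxycycline-responsive promoter. Dams of all mice ate doxycycline chow from embryonic day 0.5 until birth, so control hearts had been exposed to doxycycline as well. Litter A gave 4 of the mice and litter B gave 6, split by genotype as 2 and 2 in the former and 3 and 3 in the latter. A heart is called by its genotype and the mouse number of its label.

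Gene counts summed to between 16448090 and 24263086 per library, and the members had from 106 (Cox4i2) to 29504.5 (Cox4i1) counts in a heart. The hearts were RNA of whole tissue sections, in which fewer cells of a type and less RNA per cell cannot be told apart. Sod2, the gene targeted before birth, had 9561 to 11019 normalised counts in control hearts and 10117 to 11306 in iSOD2 hearts at 6 weeks (log2 fold change 0.03 ± 0.05 SE, adjusted p 0.806 by DESeq2). All 10 markers of ventricular cardiomyocytes were present in every heart, from Nrap (median 20165 normalised counts) to Myh6 (median 922093).

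Cytochrome c oxidase, or complex IV, passes electrons from cytochrome c to oxygen at the end of the respiratory chain and pumps protons while doing so. Its catalytic core is encoded by mitochondrial DNA, and nuclear genes supply the smaller subunits around it. Several of these exist as a ubiquitous (liver-type) isoform and a muscle (heart-type) isoform, and rodent hearts are known to switch towards Cox6a2, Cox7a1 and Cox8b as they mature. COX4 differs from the others in that Cox4i1 is the general isoform and Cox4i2 is known from lung, from vascular cells and from oxygen sensing. The core subunits could not be followed, since none of the genes in the table lay on the mitochondrial chromosome.

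The isoforms of a pair are far enough apart in sequence for reads to be assigned to one or the other. Between the coding sequences of the partners in GENCODE (GRCm38), 64.0% of aligned positions were identical for COX4, 56.5% for COX6A, 61.6% for COX7A and 53.0% for COX8, and the longest run of bases shared by a pair's transcripts was 14, 12, 12 and 10 bases in that order. The COX8 pair, on which the genotype comparison turned, is shown whole as the example. The coding sequences, without the stop codon, are printed below from 5′ to 3′, Cox8b from 2 exons within chr7:140898991-140900342 (minus strand) and Cox8a from 2 exons within chr19:7215392-7217512 (minus strand). Capitals mark the 114 bases that are identical in the alignment of the pair.
Cox8b: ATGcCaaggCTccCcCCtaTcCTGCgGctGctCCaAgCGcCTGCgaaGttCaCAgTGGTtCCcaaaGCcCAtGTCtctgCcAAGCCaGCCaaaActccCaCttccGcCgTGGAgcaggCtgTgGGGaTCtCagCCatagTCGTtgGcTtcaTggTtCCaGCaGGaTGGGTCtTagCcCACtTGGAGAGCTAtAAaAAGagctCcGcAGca
Cox8a: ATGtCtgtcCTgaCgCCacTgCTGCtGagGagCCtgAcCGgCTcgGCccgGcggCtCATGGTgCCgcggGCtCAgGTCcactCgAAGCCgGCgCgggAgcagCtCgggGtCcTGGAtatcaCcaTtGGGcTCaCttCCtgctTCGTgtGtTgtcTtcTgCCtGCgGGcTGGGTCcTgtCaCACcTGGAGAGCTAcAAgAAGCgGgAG
The capitals come in short runs broken every few bases, and no stretch as long as 50 bases is shared. Of the 8 members, 7 shared no stretch of 50 bases with a transcript of any other gene annotated in GENCODE. Cox6a1 shared 12.3% of its 50-base stretches with AC148174.2, a gene that is not in the count table, so the Cox6a1 counts are the least certain by sequence.

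In mm10 coordinates counted from 1, Cox4i1 lies on chromosome 8 (120668225 to 120674209, plus strand), Cox4i2 on chromosome 2 (152754173 to 152765037, plus) and Cox6a1 on chromosome 5 (115345654 to 115348955, minus). The 3 muscle isoforms, Cox7a1 (30184171 to 30186030, plus), Cox6a2 (128205435 to 128206366, minus) and Cox8b (140898942 to 140900446, minus), all lie on chromosome 7, far apart from each other. Cox7a2 lies on chromosome 9 (79755241 to 79759853, minus) and Cox8a on chromosome 19 (7215158 to 7217616, minus). Counts were summed over exons, whose total length per gene ran from 359 bp (Cox8b) to 748 bp (Cox7a2). The counting command named no strand option, so reads from genes that overlap on opposite strands could not be told apart. Only Cox6a2 overlapped another gene of the table, by 69 bases with Itgad on the opposite strand, and Itgad had a mean of 59.0 counts beside 20621 for Cox6a2. In GENCODE, Cox4i1 also overlaps Gm20388 on the same strand and Emc8 on the opposite one. Emc8, and the joined Emc8 transcript that the table lists apart, start 113 and 83 bases from Cox4i1 in the table's own coordinates and had means of 401 and 46.4 counts beside 24897. The only other gene of the table to start within 5 kb of a member was 4931431B13Rik, 3038 bases from the start of Cox6a2, with a mean of 6.95 counts.

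Promoter sequence from RefSeq (GRCm38.p6; 250 bases before to 50 bases after the start) was at hand for 5 of the 8 members, Cox6a1, Cox7a1, Cox7a2, Cox8a and Cox8b. The members differed most plainly in CpG dinucleotides, which are dense in the promoters of many ubiquitously used genes. Of the 300 bases, Cox8b held 2 CpG and Cox7a1 held 7, whereas Cox8a held 19, Cox7a2 20 and Cox6a1 32. The median over all 32851 promoters of the table was 7, with 2 or fewer in 23.3% and 19 or more in 28.1%. The 150 bases before the start of the COX7A and COX8 pairs are shown to make this visible, from 5′ to 3′ on the gene's strand with every CpG in capitals. They span chr7:30184021-30184170 (plus) for Cox7a1, chr9:79759854-79760003 (minus) for Cox7a2, chr7:140900447-140900596 (minus) for Cox8b and chr19:7217617-7217766 (minus) for Cox8a.
Cox7a1: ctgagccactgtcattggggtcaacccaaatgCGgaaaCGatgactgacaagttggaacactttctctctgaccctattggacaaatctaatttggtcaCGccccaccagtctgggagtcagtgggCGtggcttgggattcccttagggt
Cox7a2: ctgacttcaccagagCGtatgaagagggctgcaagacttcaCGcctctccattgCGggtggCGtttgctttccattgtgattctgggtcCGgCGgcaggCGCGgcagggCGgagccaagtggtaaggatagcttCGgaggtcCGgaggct
Cox8b: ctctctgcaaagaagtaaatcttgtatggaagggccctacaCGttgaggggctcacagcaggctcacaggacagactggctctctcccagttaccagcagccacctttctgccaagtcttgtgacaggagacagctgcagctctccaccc
Cox8a: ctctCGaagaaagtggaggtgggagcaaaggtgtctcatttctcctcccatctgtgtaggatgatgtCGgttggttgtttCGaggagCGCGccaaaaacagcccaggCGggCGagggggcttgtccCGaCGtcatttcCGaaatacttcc
In these 150 bases Cox7a1 held 4 CpG against 11 for Cox7a2, and Cox8b held 1 against 10 for Cox8a. Short motifs were searched on both strands of the 300 bases, where CANNTG and ACGTG can overlap each other. The E-box letters CANNTG were in 4 of the 5 promoters, all but Cox6a1, and in 72.3% of all promoters. ACGTG was in the 2 muscle isoforms Cox7a1 and Cox8b (19.6% of all promoters), CCGGAAG in the 2 ubiquitous isoforms Cox6a1 and Cox8a (8.86%), TATAAA in Cox8b alone, after the start (13.6%), and AAGGTCA in none of the 5 (4.72%). These are matches of letters and not binding sites.

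Levels were compared between genes as normalised counts per kb of exon (counts divided by the library's size factor and by exon length). The order was Cox4i1, Cox6a2, Cox7a1, Cox8b, Cox7a2, Cox8a, Cox6a1 and Cox4i2. Cox4i1 stood at 33324 ± 1602 and Cox6a2 at 31224 ± 3694 normalised counts per kb (mean ± SD, n = 10 hearts). Cox4i1 was the higher of these neighbours in only 7 of 10 hearts and their ranges overlapped, so their order did not hold in every heart. The hearts in which Cox4i1 was the lower, controls 1 and 2 and iSOD2 7, were all of litter A. In litter B it was the higher in every heart. Cox7a1 followed at 23385 ± 2331 and Cox8b at 19010 ± 2096 normalised counts per kb. Cox6a2 was above Cox7a1 and Cox7a1 above Cox8b within each of the 10 hearts, although the ranges over hearts overlapped at both steps. From Cox8b down to Cox7a2 the ratio of means was 3.88, with no overlap. Cox7a2 stood at 4906 ± 424, Cox8a at 2865 ± 199.8 and Cox6a1 at 2314 ± 99.2 normalised counts per kb, and none of these 3 ranges overlapped. Cox4i2 was last at 215 ± 21.5 normalised counts per kb, a ratio of means of 10.7 below Cox6a1. The 3 muscle isoforms thus lay with Cox4i1 above the 3 other ubiquitous isoforms.

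**Figure D1:**
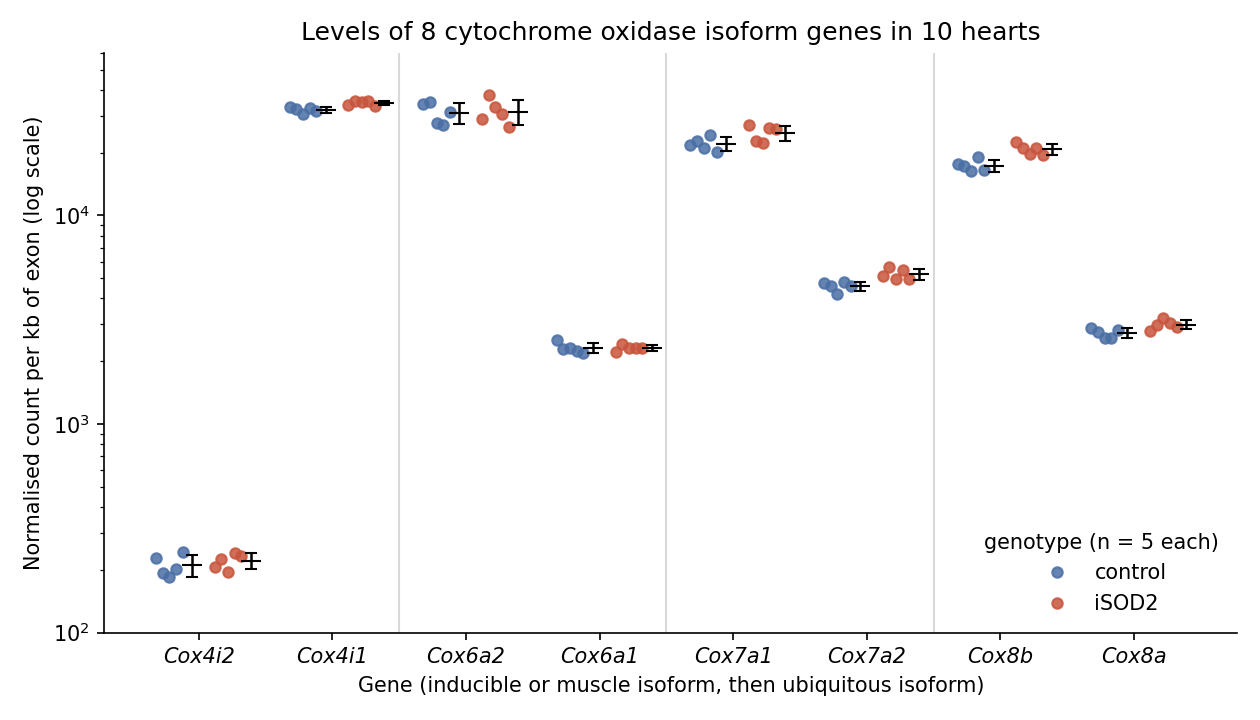
Normalised counts per kb of exon (log axis) of the 8 genes, in isoform pairs separated by grey lines. Each point is 1 heart (blue control, red iSOD2, 5 each) and the black bars give mean and SD; Cox4i1, Cox6a2, Cox7a1 and Cox8b lie between 16258 and 37698, and Cox4i2 lies between 185 and 244.

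The share of a pair's level taken by the muscle isoform, computed per kb within each heart, was highest for COX6A. Cox6a2 took 93.0% ± 0.681 of the COX6A level (SD, n = 10), with 91.9% in the lowest heart and 94.0% in the highest. Cox8b took 86.8% ± 1.13 of the COX8 level, from 85.3% to 88.9%. Cox7a1 took 82.6% ± 1.24 of the COX7A level, from 80.1% to 84.1%. The muscle isoform thus had the larger share of these 3 pairs in every heart, and the 3 ranges did not overlap. How far the shares differ by subunit also rests on the exon lengths used, which are the same for every heart and not covered by this spread. Cox4i2, in contrast, took 0.642% ± 0.0624 of the COX4 level, from 0.551% to 0.765%.

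The ratio of the isoforms in 1 library does not depend on the size factors of libraries, and it was the main measure for the comparison of genotypes. It is not free of a trend of counts with exon length, since partners differ in length (Cox8b 359 and Cox8a 541 bp, Cox7a1 360 and Cox7a2 748 bp). As a ratio of counts, Cox6a2 over Cox6a1 was 16.6, 18.98, 14.8, 15.0 and 17.7 in control hearts 1, 2, 3, 4 and 6, and 16.2, 19.3, 17.8, 16.5 and 14.1 in iSOD2 hearts 5, 7, 8, 9 and 10. The highest and the lowest ratio were both in iSOD2 hearts, and the groups lay on top of each other. Cox7a1 over Cox7a2 was 2.22, 2.38, 2.39, 2.45 and 2.11 in the same control hearts and 2.55, 1.94, 2.15, 2.30 and 2.502 in the iSOD2 hearts, again interleaved. Cox8b over Cox8a was 4.05, 4.11, 4.17, 4.89 and 3.85 in control hearts and 5.30, 4.69, 4.04, 4.55 and 4.45 in iSOD2 hearts. Here 4 of the 5 iSOD2 hearts exceeded 4 of the 5 control hearts, but control 4 and iSOD2 8 crossed over. Cox4i2 over Cox4i1 ran from 0.00583 to 0.00753 in control hearts and from 0.00541 to 0.00677 in iSOD2 hearts.

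None of the 4 ratios differed between genotypes beyond the spread between mice (two-sided exact permutation test over all arrangements of 5 against 5 hearts, smallest possible p 0.00794, Benjamini-Hochberg over 4). The log2 ratio of Cox8b to Cox8a was 0.13 higher in iSOD2 hearts (95% interval -0.07 to 0.33, exact p 0.175, adjusted 0.698). For Cox7a1 to Cox7a2 the difference was -0.02 (-0.21 to 0.17, exact p 0.833), for Cox6a2 to Cox6a1 0.01 (-0.22 to 0.25, exact p 0.873) and for Cox4i2 to Cox4i1 -0.04 (-0.25 to 0.17, exact p 0.683), and the adjusted p was 0.873 for these 3. Without control 4 the exact p of Cox8b to Cox8a was 0.0476, with a difference of 0.18, and without the other hearts in turn it stayed above the threshold. The effect of genotype on a ratio was not found to depend on sex (lowest exact p 0.19, for Cox7a1 to Cox7a2) or on litter (lowest exact p 0.0833, also for Cox7a1 to Cox7a2, which was 0.17 lower on the log2 scale in iSOD2 hearts of litter A and 0.08 higher in those of litter B).

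**Figure D2:**
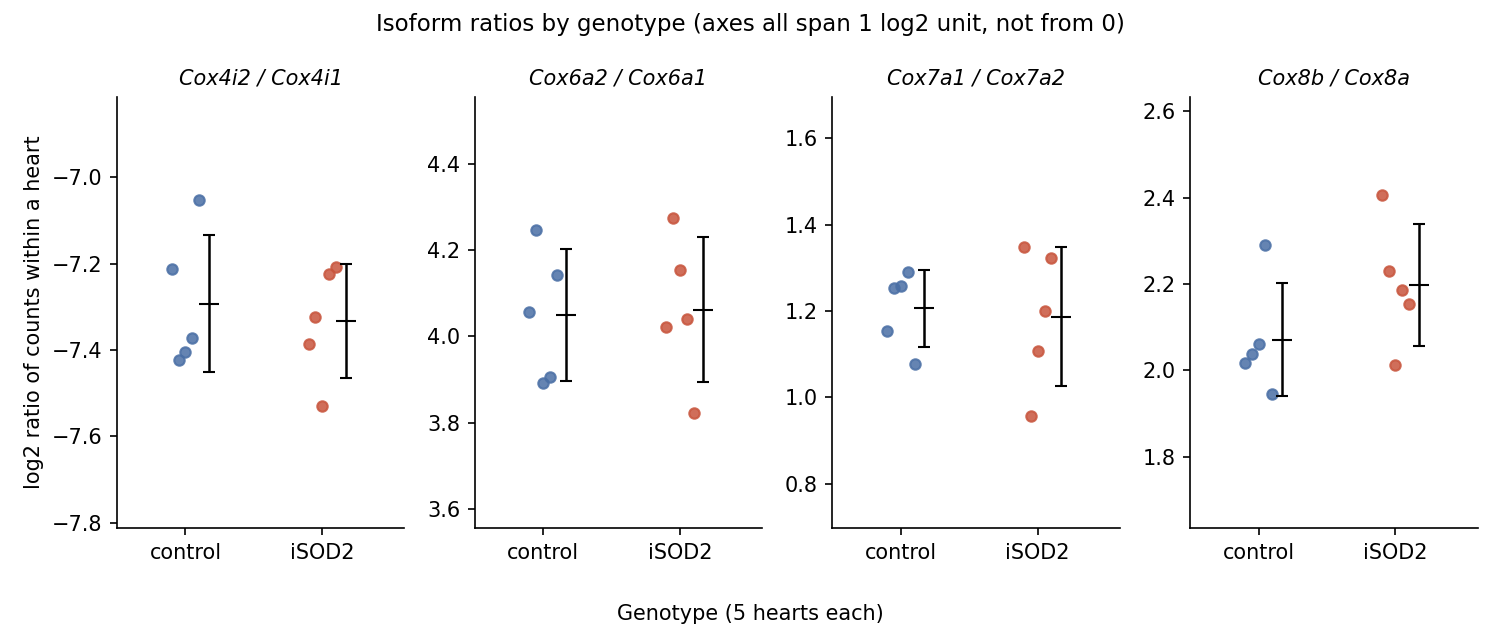
log2 ratio of counts of the inducible or muscle isoform to its partner in each heart, by genotype (5 hearts each), with mean and SD in black. Each axis spans 1 log2 unit; the genotypes overlap in all 4 panels, with the largest difference of means, 0.13, for Cox8b over Cox8a.

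The level of each isoform was compared between genotypes next. Cox8b, the muscle COX8, was the only member called higher in iSOD2 hearts by the rule of the study (adjusted p at most 0.05 and an absolute log2 fold change above 0.25), under which 1.26% of the 9489 genes with an adjusted p were called higher. Its normalised counts were 6349, 6162, 5837, 6824 and 5893 in control hearts 1, 2, 3, 4 and 6, and 8028, 7589, 7043, 7514 and 7008 in iSOD2 hearts 5, 7, 8, 9 and 10. Every iSOD2 heart lay above every control heart. The log2 fold change was 0.26 ± 0.06 (SE, adjusted p 0.00103), barely over the fold threshold. It was 0.24 without control 3 or control 6 and 0.23 without iSOD2 5, each time under the threshold with an adjusted p of at most 0.0150. By edgeR, which called 0 genes (2723 at an unadjusted p under 0.05), the change of Cox8b was the same size with an adjusted p of 0.0752.

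Cox7a2, the ubiquitous COX7A, had 3533, 3439, 3155, 3588 and 3419 normalised counts in the control hearts and 3818, 4214, 3724, 4091 and 3713 in the iSOD2 hearts, which did not overlap. Its log2 fold change of 0.19 ± 0.05 (SE) passed the adjusted p (0.0158) but not the fold threshold. Cox4i1, the general COX4, had 22512 to 24262 normalised counts in control hearts and 24713 to 26039 in iSOD2 hearts. Its log2 fold change was 0.11 ± 0.04 (SE, adjusted p 0.0337). When 1 heart was left out, the adjusted p of Cox4i1 was above 0.05 in 7 of 10 cases (up to 0.177, without control 3) and that of Cox7a2 in 4 of 10 (up to 0.101, also without control 3). The genotypes differed in their numbers of males and females, and the adjusted p of Cox4i1 was 0.0602 with sex in the model and 0.103 with sex and litter, while that of Cox7a2 (0.0187 and 0.0235) and Cox8b (0.00322 and 0.00242) stayed below 0.05. With Cox8b, 3 members thus had an adjusted p at most 0.05 and separate genotypes, where 3.04% of all 9489 genes had such a p and were higher. Among the 277 of those genes with exons as long as the members' (359 to 748 bp) the share was 30.0%, to which 3 of 8 is near.

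The remaining 5 members did not pass. Cox7a1, the muscle COX7A, had 7210 to 8774 normalised counts in control hearts and 8019 to 9717 in iSOD2 hearts, and 3 of 5 iSOD2 hearts lay above the highest control (log2 fold change 0.17 ± 0.07 SE, adjusted p 0.132). Cox8a, the ubiquitous COX8, had 1394 to 1569 and 1516 to 1745 (0.13 ± 0.06, adjusted p 0.153). Cox6a2 had 17666 to 22809 and 17355 to 24654.5 (0.02 ± 0.10, adjusted p 0.941), and Cox6a1 had 1160 to 1337 and 1172 to 1274 (0.00 ± 0.05, adjusted p 0.994), the 2 values nearest to 0 among the 8. Cox4i2, the scarcest, had 133 to 176 and 140 to 174 normalised counts (0.06 ± 0.12), and DESeq2 gave it no adjusted p. For Cox7a1, the iSOD2 hearts above the highest control were those of litter B (iSOD2 5, 9 and 10). Its log2 fold change was 0.01 in litter A alone (adjusted p 0.958) and 0.27 in litter B alone (adjusted p 0.156). Without control 4 it was 0.21 (adjusted p 0.0423), still under the fold threshold. Whether this change of level differed between litters was not tested. Added over the isoforms per kb, the pair level was 1.08 times the control mean for COX4, 1.01 times for COX6A, 1.13 times for COX7A and 1.18 times for COX8, as descriptions.

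All 8 log2 fold changes were above 0 with the counts as deposited (median 0.12, against -0.01 over the 9489 genes), with Cox6a1 just below 0 under TMM scaling, but 2 of 8 were above 0 (median -0.03) once the trend of counts with exon length was removed from each library, and 3 of 8 with the trend of GC content removed as well. The members are short transcripts, and short transcripts as a class were higher in the iSOD2 libraries. Among the same 277 genes of 359 to 748 bp the median log2 fold change was 0.15, and 12.6% were called higher. The 1 member called of 8 is close to that share. With the length trend removed, the log2 fold change was 0.08 ± 0.05 for Cox8b (SE, adjusted p 0.483), 0.05 ± 0.05 for Cox7a2 (adjusted p 0.803) and -0.03 ± 0.04 for Cox4i1 (adjusted p 0.842). No member was called after either correction, and the values of the 8 ran from -0.16 (Cox6a1, adjusted p 0.163) to 0.08 (Cox8b). Whether the length trend arose in the libraries or in the hearts was not tested.

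**Figure D3:**
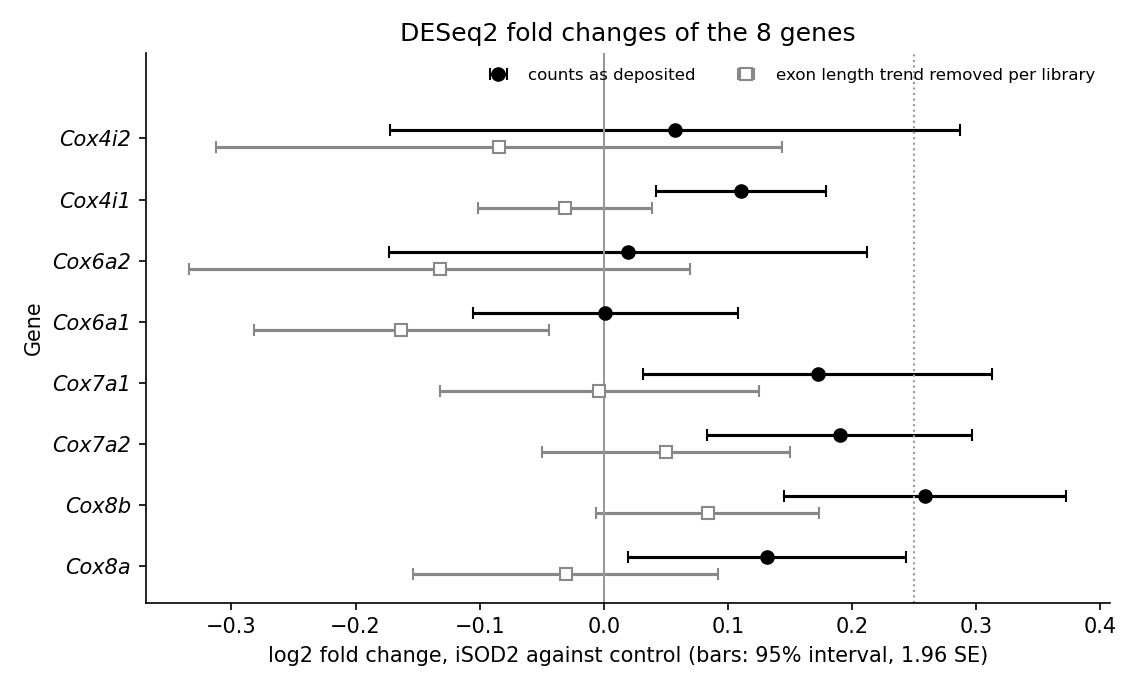
log2 fold change of iSOD2 against control hearts (horizontal axis) for the 8 genes, by DESeq2 on the deposited counts (black circles) and after removal of the exon length trend per library (open squares), with 95% intervals. The dotted line is the fold threshold of 0.25; only Cox8b, at 0.26, lies past it, and it lies at 0.08 with the trend removed.

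The other nuclear subunits of complex IV were read beside the isoforms. Of 12 subunit genes without a partner among the 8, 10 passed the count filter, all 10 had a log2 fold change above 0 (median 0.22), and 5 were called higher with none called lower, beside 1.26% called higher of all genes and 12.6% of those in the exon length range of the isoform genes, in which 4 of the 5 lie (Cox7b, at 996 bp, does not). The 5 were Cox7b (0.36, adjusted p 0.000124), Cox6c (0.35, adjusted p 0.00188), Ndufa4 (0.30, adjusted p 4.7e-05), Cox7c (0.30, adjusted p 0.000498) and Cox6b1 (0.25, adjusted p 0.000132), all structural subunits of the complex. Cox6b1 lost its call in 4 of the 10 fits that left out 1 heart, the other 4 in none. Cox7b and Cox6c had 6072 to 7753 and 4935 to 6868 normalised counts in control hearts and 8056 to 8801 and 7247 to 8041 in iSOD2 hearts, with no overlap. Cox5a (0.18, adjusted p 0.000124), a subunit on the matrix side, missed only the fold threshold. The 2 genes that did not pass the filter were Cox7b2, with at most 2.93 normalised counts in a heart, and Cox8c, listed at 0 in all 10, isoforms known from testis. With the length trend removed, 7 of 10 remained above 0 (median 0.06) and none was called: Cox7b had 0.25 (adjusted p 0.00454) and Ndufa4 0.14 (adjusted p 0.0332), both short of the fold threshold.

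Among 27 genes for assembly of complex IV and delivery of copper to it, 20 had a log2 fold change above 0 (median 0.09), 2 were called higher and 1 lower, beside 1.26% and 1.70% of the 9489 genes. Cox17, the copper chaperone of the intermembrane space, rose by 0.34 (adjusted p 0.000456) and Pet100, an assembly factor, by 0.37 (adjusted p 0.0316), though Pet100 was called in only 1 of the 10 fits that left out 1 heart and Cox17 in all 10. Taco1, the translational activator of the mitochondrially encoded COX1, fell by 0.37 (adjusted p 0.00027), from 768 to 971 normalised counts in control hearts to 612 to 678 in iSOD2 hearts. Coa6 (0.31, no adjusted p) and Cox14 (0.26, adjusted p 0.0569) were the next in size and were not called. With the length trend removed, 13 of 27 were above 0 (median -0.00), Taco1 was the 1 gene still called (-0.46, adjusted p 3.43e-05), and Cox17 (0.17, adjusted p 0.189) and Pet100 (0.28, adjusted p 0.237) were not. Taco1, with an exon length of 1330 bp, was called in all 10 fits that left out 1 heart, and by edgeR its adjusted p was 0.0662.

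**Figure D4:**
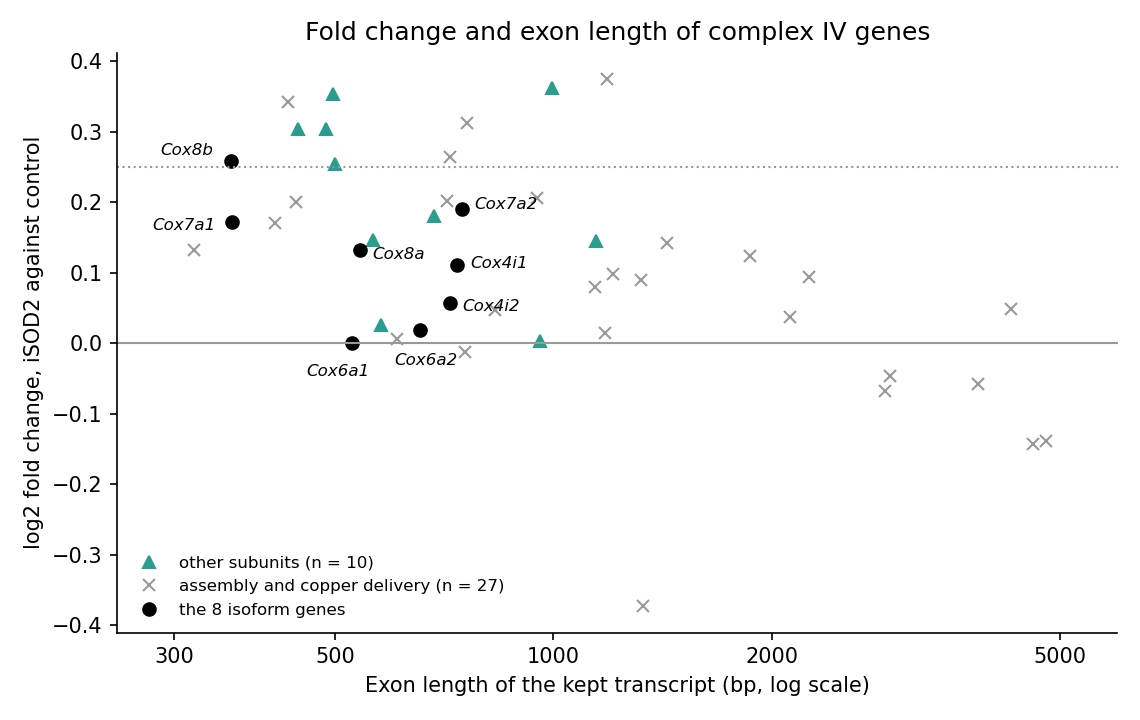
log2 fold change of iSOD2 against control hearts by DESeq2 (vertical axis) against exon length in bp (horizontal log axis) for the 8 isoform genes (black, named), 10 other subunit genes (green triangles) and 27 assembly genes (grey crosses). The dotted line is the fold threshold of 0.25; the 8 isoform genes lie between 359 and 748 bp and between 0.00 and 0.26.

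Litter, not genotype, went with the level of Cox6a2. In litter A its normalised counts were 22256 and 22809 in controls 1 and 2 and 24654.5 and 21664 in iSOD2 7 and 8. In litter B they were 18195, 17666 and 20477 in controls 3, 4 and 6 and 19026, 20102 and 17355 in iSOD2 5, 9 and 10. Every heart of litter A lay above every heart of litter B, in both genotypes. With genotype in the model the log2 fold change of litter B against litter A was -0.28 ± 0.06 (SE, adjusted p 0.000486), and Cox6a2 was the only member called, where 0.976% of 15670 genes were called lower in litter B. The change was -0.28 by edgeR (adjusted p 0.0324) and -0.29 with the length trend removed. Without iSOD2 7 it was -0.24 (adjusted p 0.0174), under the fold threshold, and with sex in the model as well it was -0.25 (adjusted p 0.00658). The other 7 members ran from -0.09 (Cox8a, adjusted p 0.479) to 0.09 (Cox7a1, adjusted p 0.595) between litters.

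The ratio of Cox6a2 to Cox6a1 was lower in litter B as well, by 0.21 on the log2 scale (95% interval -0.38 to -0.05, exact permutation test over all arrangements, p 0.0238), which did not pass the correction over 4 ratios (adjusted p 0.0952). It was 18.2 ± 1.23 in litter A and 15.7 ± 1.29 in litter B as a ratio of counts (SD, n = 4 and 6), and control 1 of litter A and control 6 of litter B crossed over. Cox7a1 to Cox7a2 differed by 0.13 the other way (exact p 0.0952), and by 0.17 without control 6 (exact p 0.0317). Cox8b to Cox8a and Cox4i2 to Cox4i1 differed by 0.10 each (exact p 0.314 and 0.319). The labels do not say what separated the litters, so dam, date and handling cannot be told apart from litter.

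**Figure D5:**
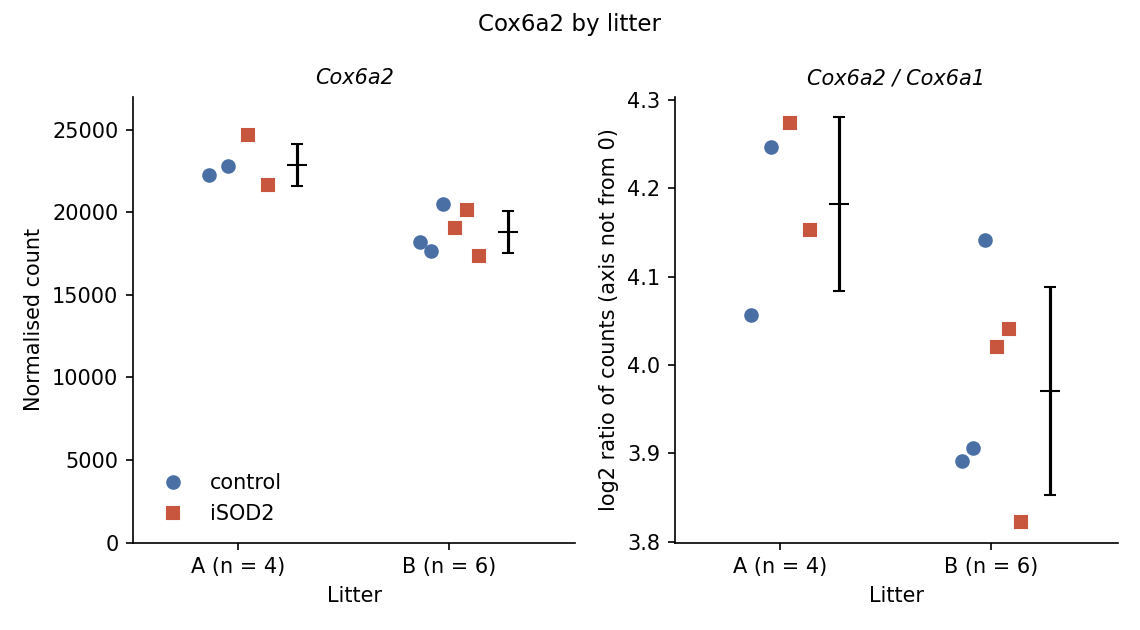
Cox6a2 normalised counts (left, axis from 0) and log2 ratio of Cox6a2 to Cox6a1 counts (right) by litter, with mean and SD in black; circles are control and squares iSOD2 hearts. The 4 hearts of litter A lie at 21664 or more normalised counts and the 6 of litter B at 20477 or less, while the ratios overlap.

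Between the sexes no member was called, beside 79 of 16364 genes (0.483%). The largest difference was that of Cox6a2, -0.18 ± 0.09 (SE, adjusted p 0.679) in females against males. Litter A held 3 males and 1 female and litter B 2 males and 4 females, and with litter in the model the difference was -0.07 ± 0.06 (SE, adjusted p 0.9998). Without litter in the model, the other 7 lay between -0.08 and 0.03. The exact p of the 4 ratios by sex was 0.349 or more. The genotype-by-sex term called 0 of 17743 genes (0%) in DESeq2, with 209 at an unadjusted p under 0.05. Cox7a2 had the lowest unadjusted p of the members for that term, 0.0550. Its log2 fold change was 0.30 in males alone (adjusted p 0.0108) and 0.10 in females alone (adjusted p 0.9998), and Cox8b had 0.30 (adjusted p 0.00106) and 0.21 (adjusted p 0.9998). The genotype-by-sex term of Cox8b had an unadjusted p of 0.462.

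Isoform use differs between cell types, and markers of the cells that a heart section can hold were read beside the members. The 10 ventricular cardiomyocyte markers summed to 1882110 to 2045320 normalised counts in litter A and 1661130 to 1829140 in litter B, with no overlap, and their mean log2 level was 16.83 ± 0.05 and 16.67 ± 0.04 (SD, n = 4 and 6, exact p 0.00476, the smallest possible). The 11 markers of pericytes and vascular smooth muscle, the cells where Cox4i2 is known, had 10.75 ± 0.03 and 10.85 ± 0.06 (exact p 0.0143). Taken apart, the 7 pericyte markers had 11.03 ± 0.03 and 11.04 ± 0.07 (exact p 0.838) and the 6 smooth muscle markers 8.79 ± 0.09 and 8.97 ± 0.15 (exact p 0.0810). By gene the 11 were not alike in the litter comparison of DESeq2. Acta2 had a log2 fold change of 0.96 (adjusted p 4.5e-07), Mcam 0.33, Rgs5 and Higd1b 0.19 and Cspg4 0.06. The rest lay below 0, namely Pdgfrb (-0.13), Kcnj8 (-0.11), Abcc9 (-0.09), Tagln (-0.08), Myh11 (-0.07) and Notch3 (-0.01). The 7 endothelial markers had 11.27 ± 0.07 and 11.39 ± 0.06 (exact p 0.0238) and the 10 skeletal muscle markers 3.68 ± 0.24 and 3.34 ± 0.16 (exact p 0.0190). As a mean and as a sum, cardiomyocyte markers were thus lower in litter B, as was Cox6a2. By gene they ran from -0.28 (Nrap) to 0.02 (Actc1, the only one above 0) in the litter comparison of DESeq2, and only Nrap and Mybpc3 (-0.26) were called. Myh6 (-0.245, adjusted p 0.000937), Myl2 (-0.18, adjusted p 0.00712) and Myl3 (-0.15, adjusted p 0.00398) passed the adjusted p but not the fold threshold. The part of the cardiomyocyte markers in the difference of Cox6a2 was not tested. Between genotypes the cardiomyocyte level was 16.73 ± 0.10 in control and 16.74 ± 0.09 in iSOD2 hearts (exact p 0.921), and that of the mural cells 10.80 ± 0.09 and 10.82 ± 0.07 (exact p 0.754). None of these exact p-values, by litter or by genotype, is corrected for the number of marker lists.

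The hepatocyte markers, of which 9 of 10 were found, had a higher mean log2 level in iSOD2 hearts, at 8.997 ± 0.611 against 7.22 ± 2.02 (SD, n = 5 each, exact p 0.0317). This p is not corrected for the number of marker lists. By gene in the DESeq2 fit all 9 had a log2 fold change above 0, but only Apoa2 was called (0.85, adjusted p 0.00247). The others had an adjusted p from 0.292 (Serpina1c) to 0.421 (Alb), and Apoh had none. Their sum ran from 229 to 10032 normalised counts in control hearts and from 4903 to 20445 in iSOD2 hearts, with Alb at 47.9 in the lowest heart and 14601 in the highest, and their part in the changes of the members was not tested. Brown adipocytes and skeletal muscle also use muscle isoforms of the complex. The 5 brown adipocyte markers summed to 331 to 427 normalised counts in control and 345 to 410.5 in iSOD2 hearts, nearly all Cidea and Dio2, with Ucp1 at no more than 7.41 in any heart. The sums were not tested. The mean log2 level, in which scarce markers weigh as much as Cidea, was 3.51 ± 0.22 and 3.30 ± 0.34 (exact p 0.302). The 10 skeletal muscle markers summed to 2014 to 3653 and 2303 to 5059, nearly all Acta1, which the heart itself expresses, with Myh4 at no more than 1.01 in any heart. Their mean log2 level, again with equal weights, was 3.38 ± 0.22 and 3.57 ± 0.27 (exact p 0.238). The exact p between genotypes was 0.151 for 7 fibroblast markers, 0.246 for 7 pericyte markers, 0.0794 for 6 smooth muscle markers and 0.675 for the endothelial markers.

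Over the 10 hearts none of 20 relations between the 4 ratios and 5 marker levels passed the correction (permutation tests, Benjamini-Hochberg over 20). The lowest adjusted p was 0.213, for Cox6a2 to Cox6a1 with the ventricular cardiomyocyte level. Since the litters were separate in that marker level, no correlation over all hearts is given for it. Within litter B (n = 6 hearts) Pearson r was 0.38, and litter A held too few hearts for a value. For Cox4i2 to Cox4i1 with the mural cell level, r within litter B was 0.20. Over the 20 relations, r within litter B ran from -0.57 (Cox6a2 to Cox6a1 with hepatocytes) to 0.74 (Cox8b to Cox8a with ventricular cardiomyocytes). It was 0.72 for Cox6a2 to Cox6a1 with the mural cell level. These values within litter B were not tested.

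The members did not vary as 1 block over the 10 hearts. As a description over libraries that share their scaling, the closest pair was Cox4i1 and Cox7a2 (Pearson r 0.94 of log2 normalised counts), followed by Cox7a2 and Cox8b (0.88), Cox4i1 and Cox8b (0.84), Cox7a1 and Cox8b (0.80) and Cox4i1 and Cox8a (0.80). Partners were less alike than these, with 0.59 for Cox7a1 and Cox7a2, 0.46 for Cox6a2 and Cox6a1, 0.45 for Cox8b and Cox8a and 0.33 for Cox4i2 and Cox4i1. The lowest value was -0.37, between the muscle isoforms Cox6a2 and Cox7a1. Genotypes and litters are pooled in these values, and no value within a genotype or litter was computed. For Cox4i1, Cox7a2 and Cox8b every iSOD2 heart lay above every control heart, and Cox6a2 differed between litters.

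Among 12148 other genes with a mean of at least 50 normalised counts, the ones most like each member over the 10 hearts were as follows, by Pearson r. Cox8b was nearest to Mpc2, a subunit of the mitochondrial pyruvate carrier (0.98), Ndufa4, itself a subunit of complex IV (0.98), and Psma4, a proteasome subunit (0.97). Cox7a2 was nearest to Atp5e (0.95), Uqcrh (0.95) and Acads (0.95), which encode a subunit of ATP synthase, a subunit of complex III and a fatty acid oxidation enzyme. Cox4i1 was nearest to the ribosomal protein gene Rps19 (0.98), Bag1 (0.96) and Mrpl54 (0.95), and Cox7a1 to Malsu1 (0.94), Sdhaf2 (0.93) and Tsc22d3 (0.93). Cox6a2 was nearest to Pkp2, the plakophilin of the cardiac desmosome (0.98), Pdxdc1 (0.96) and Anapc5 (0.95). Cox4i2 was nearest to Rbm4b (0.92), Tie1, an endothelial receptor (0.89), and Luc7l (0.86), Cox6a1 to Tasp1 (0.91), Btbd2 (0.90) and Cxxc4 (0.86), and Cox8a to Eef1d (0.91), Rps4x (0.91) and Parp9 (0.91). With 10 hearts and this many genes high values arise readily, and no p is given. Genotypes and litters are pooled in these values as well.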

How the data were processed

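Total RNA of heart sections from 10 mice was depleted of ribosomal RNA and sequenced as stranded libraries, 1 per mouse. Per the labels and methods, reads were aligned by the authors to mm10 with STAR and tallied over exons with HOMER, with 1 transcript kept for a gene and no strand option named. The deposited table holds expected counts (steps of 0.5), which the authors did not normalise before deposit, beside exon lengths in bp. No 2 libraries were copies: chi-square per degree of freedom was 5.46 or more over 45 pairs. Depth was 16448090 to 24263086 counts per library.

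For the models, values were rounded to whole counts and genes under 10 counts in total were dropped, leaving 17746. Genotypes were tested with DESeq2 1.42.0 (R 4.3.3; Wald test, median-of-ratios size factors, Benjamini-Hochberg adjustment, no covariate), following the test, filter and thresholds of the study. Litter and sex were each tested with genotype as covariate. Log2 ratios of deposited counts were tested by exact permutation (two-sided) and correlations with 100000 permutations (SciPy 1.17.1); 95% intervals used the pooled SD. Marker levels are means of log2(normalised count + 1). Trends with length and GC were removed by lowess (span 0.3) on each library's log2 counts, with GC content found for 99.0% of genes. Alternatives were edgeR 4.0.16, TMM scaling, other filters, covariates, each litter or sex alone, and leaving out each mouse; those of the litter comparison were chosen after seeing the data. The fits were tested on simulated counts with known changes. Genes named by rule were the 8 members, the called genes of the other complex IV lists, the 3 genes most like each member, and neighbours within 5 kb. Cox5a, Cox7b2, Cox8c, Coa6, Cox14 and single markers were chosen after their values were seen. The members and lists were chosen with earlier results of these data known. Each mouse is 1 replicate; littermates share a litter. Protein sequences were not used here.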

Additional observations from a re-analysis of the deposited data

How the results depend on the processing

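The number of genes called between genotypes depended on the model: 281 by DESeq2, 0 by edgeR (2723 at an unadjusted p under 0.05), 121 in litter A alone, 62 in litter B alone, 152 in males alone, 96 in females alone, 133 with the exon length trend removed, 118 with the GC trend removed as well, 577 without a fold threshold, and 166 (without control 2) to 495 (without control 4) when 1 mouse was left out. It was 186 without control 1 and 185 without control 3. Fewer mice were tested in the subsets; the other causes were not tested. Cox8b kept its direction in all 24 alternatives and lost its call in 9: by edgeR, under both trend corrections, in litter A (0.23), litter B (0.28) and females (0.21) alone, and without control 3, control 6 or iSOD2 5. Cox7a2 and Cox4i1 were called without a fold threshold, and Cox7a2 also in males alone. The isoform ratios by genotype kept their side of the threshold in all alternatives but 1, Cox8b to Cox8a without control 4. Over the mice left out, that log2 difference ran from 0.075 to 0.18, that of Cox7a1 to Cox7a2 from -0.06 to 0.04, of Cox6a2 to Cox6a1 from -0.04 to 0.07 and of Cox4i2 to Cox4i1 from -0.07 to 0.02. Between litters, Cox6a2 to Cox6a1 ran from -0.25 to -0.18 and Cox7a1 to Cox7a2 from 0.078 to 0.18, and the latter passed the unadjusted threshold without control 6 alone. Cox6a2 kept its lower level in litter B in all 14 alternatives and its call in 13. Within 1 litter or sex, 2 or 3 mice a group cannot reach an exact p of 0.05, so those p-values say nothing about stability. No paired analysis was possible because the replicate numbers are those of single mice and no number occurs in both genotypes. Litter could serve as a block: as a covariate it gave 323 calls and kept that of Cox8b (0.26, adjusted p 0.00101), and with hearts rearranged within litters the exact p of the 4 ratios by genotype was 0.20 (Cox8b to Cox8a) to 0.82. Cox4i2, at 106 to 181 counts a heart, is the member most limited by depth.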
